A study of Homo sapiens with 6 samples.

Results

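The genes described here were the kinesins, the centromere proteins, the spindle checkpoint genes and the mitotic kinases that work with them. Their transcripts were measured in A549 cells with and without silencing of FSCN1. The genes were taken from the count table by gene symbol among the protein-coding genes. Included were every KIF and KIFC gene, every CENP gene with a 1-letter suffix, and named members of the checkpoint, the NDC80 complex, the chromosomal passenger complex, and the Aurora and Polo-like kinases. This gave 78 of the 30230 genes in the table, of which 17075 were protein-coding. The rule reads symbols only. By known role, 49 genes act in mitosis, 17 are kinesins that carry cargo, 10 are other kinesins, and PLK4 and CENPJ act in centriole duplication.

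A549 is a human lung adenocarcinoma cell line with epithelial features. Polyadenylated RNA was sequenced in 3 libraries of cells given a scrambled siRNA (NC) and 3 libraries of cells given an siRNA against FSCN1 (siFSCN1), collected after 48 h; FSCN1 encodes fascin, a protein that bundles actin filaments. A single siRNA was used for the silenced libraries, so that its effects on other transcripts cannot be told apart from those of fascin loss, and the treatment label of the NC samples names a control plasmid. The study calls the libraries of a group biological replicates, and nothing in the labels says how the cultures were kept apart, so that the p-values measure the spread between these libraries.

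A kinesin is a motor protein that walks along microtubules or takes them apart. Mitotic kinesins build and move the spindle, while transport kinesins carry vesicles, mitochondria and other cargo between divisions. The centromere is marked by the histone CENPA, on which the inner kinetochore is assembled from CENP proteins. The NDC80 complex then holds the microtubule end, and the spindle checkpoint delays anaphase until every chromosome is attached. Transcripts of most mitotic genes are known to peak in G2 and mitosis, so that in RNA of a whole culture fewer cells in G2 and mitosis and less RNA per such cell cannot be told apart.

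The libraries held between 27967301 and 36560919 counts in NC and between 30908982 and 32676062 in siFSCN1. FSCN1 was at 44.98, 47.24 and 45.99 FPKM in NC replicates 1 to 3 and at 4.46, 2.82 and 3.19 FPKM in siFSCN1, a log2 fold change of -3.89 ± 0.094 (SE; edgeR quasi-likelihood test, Benjamini-Hochberg adjusted p = 8.1e-16). FPKM is the number of fragments scaled to transcript length and to the mapped fragments of the library, and CPM is the count scaled to the library's size after TMM scaling. The line's markers were present, with 5 genes typical of A549 summing to between 5160 and 5430 FPKM in NC and between 6090 and 6270 in siFSCN1. The 5 epithelial markers summed to between 2610 and 3000 FPKM in NC and between 1530 and 1850 in siFSCN1; KRT8 (-0.88) and KRT18 (-0.99), which carry this sum, were lower, as was KRT19, while CDH1 (1.35) and EPCAM (0.29) were higher. Of the alveolar type II markers measured, which summed to at most 0.78 FPKM, NKX2-1 had no more than 5 counts in any library. The 5 endothelial markers summed to at most 0.07 FPKM in any library and the 6 fibroblast markers to at most 0.67. The 5 leukocyte markers summed to between 2.87 and 3.07 FPKM in NC and between 3.97 and 4.86 in siFSCN1, which came mostly from CD14, while PTPRC had no more than 4 counts in any library. The part of these markers in the results was not tested.

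With TMM scaling, silencing of FSCN1 was accompanied by lower transcript levels of most mitotic members, and the transport kinesins were mixed. Of the 78 genes, 76 passed the filter on low counts, and KIF4B, with 1 count in all libraries together, and KIF6, with between 5 and 15 counts, did not. Of the 48 mitotic members tested, 35 (72.9%) were lower in siFSCN1 at an adjusted p under 0.05, 5 (10.4%) were higher, and 8 did not pass. Over all 17076 genes tested, 33.2% were lower and 35.1% higher by the same rule. The median log2 fold change of the mitotic members was -0.32, against 0.03 for all genes tested. Among the 4435 genes between the lower and the upper quartile of the mitotic members' abundance (4.27 to 6.04 log2 CPM), 46.9% were lower and 32.9% higher, with a median of -0.09. Of the 17 transport kinesins, 5 (29.4%) were lower, 2 (11.8%) were higher and 10 did not pass, with a median of -0.11 that turned to 0.08 when libraries were scaled by their totals alone. With that scaling 4 transport kinesins were lower and 6 higher, and with the trends with abundance and exonic length removed 11 were lower and 3 higher.

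The median of the mitotic members lay 0.21 below that of the transport kinesins on the log2 scale, a difference of -0.21 that scaling of the libraries leaves as it is. This contrast depended on other choices. It was -0.09 against the 13 transport kinesins of the kinesin-1, kinesin-2 and kinesin-3 families, -0.06 when the trend of fold change with abundance across all genes was removed, and 0.03 when the trends with abundance and exonic length were removed together. Scaling by library totals, which moved the median of all genes to 0.22, gave 22 mitotic members lower and 10 higher. With limma on log2(FPKM + 0.1), 23 were lower and 8 higher, and the median of all genes was 0.17. Under either of these 2 settings, most mitotic members were thus not called lower. The shares of all genes called under them are not given here.

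The CPM of the groups did not overlap for 41 of the 48 mitotic members (85.4%) and for 9 of the 17 transport kinesins (52.9%), against 71.2% of all genes tested. Changes were small in size. At an adjusted p under 0.05 and a change of at least 2-fold, 3 members were lower (KIF1C, SPC24 and AURKA) and 4 were higher (KIF12, KIF17, KIF25 and KIF26B), where 4.85% of all genes tested were lower and 11.7% higher by that rule. KIF25 and KIF26B passed the filter only through the siFSCN1 libraries, where they are high. With library totals KIF1C was the 1 member left as lower by that rule. The plot of log2 fold changes shows the members by role.

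**Figure D1:**
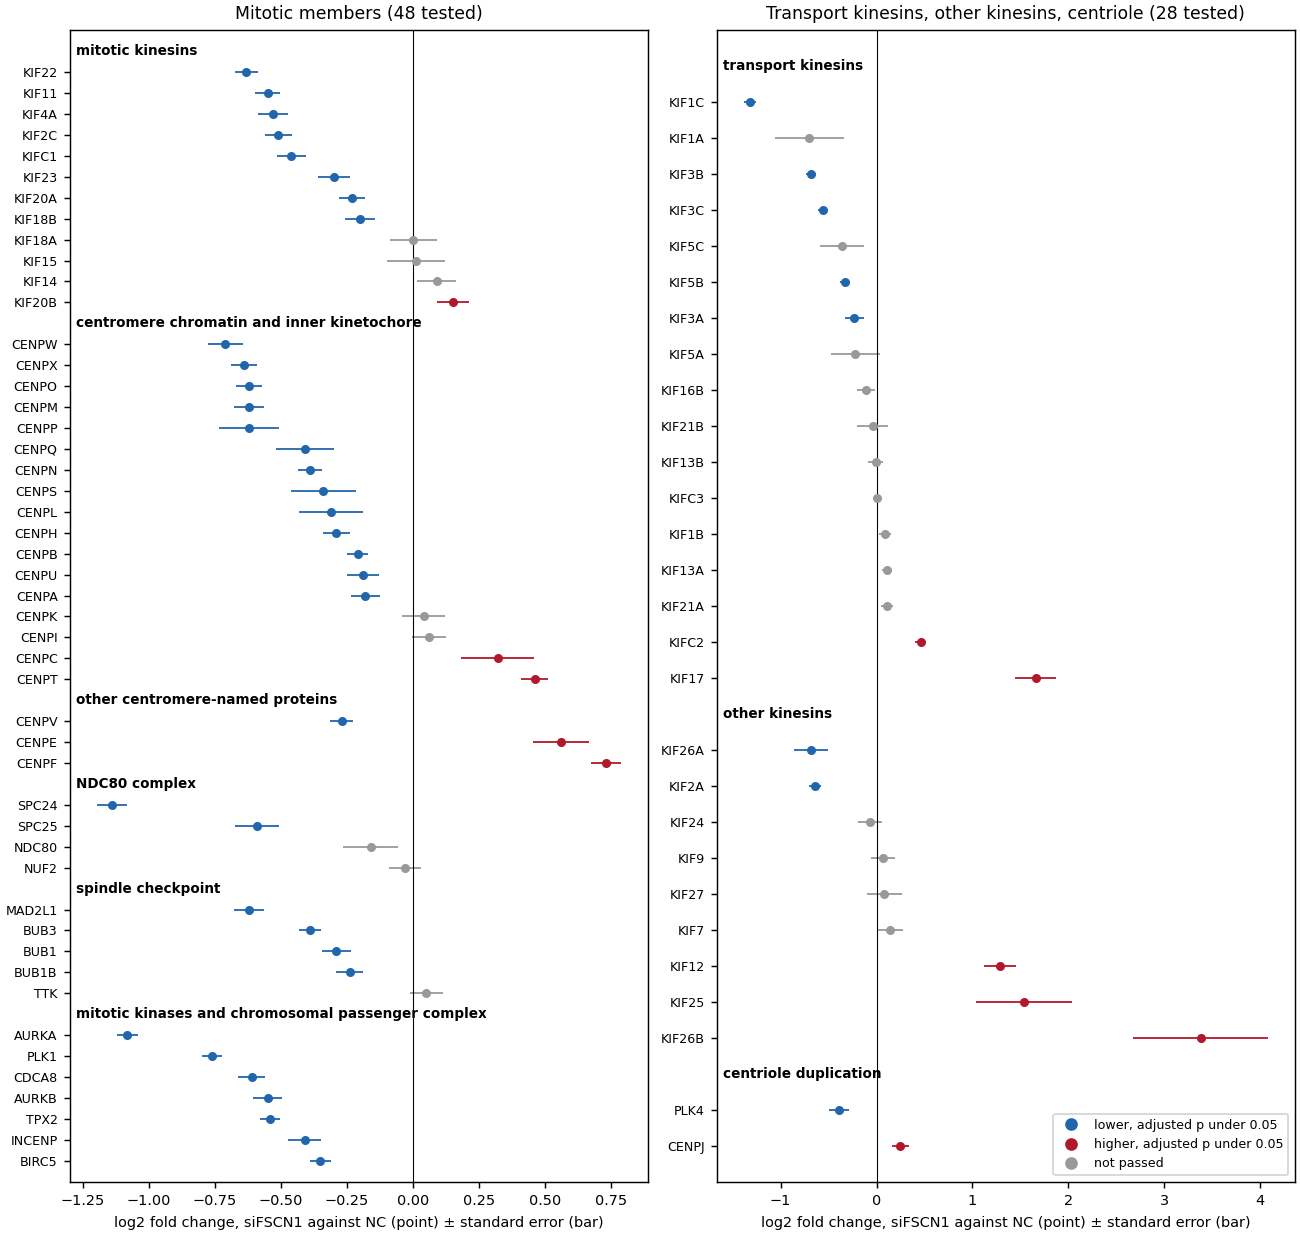
Log2 fold change of the 76 tested members in siFSCN1 against NC (x axis, log2 units), 1 member per line within its role; points are edgeR estimates, bars are standard errors, and colours mark the direction at an adjusted p under 0.05. In the left panel, 35 of the 48 mitotic members lie below 0 and pass, with AURKA and SPC24 furthest to the left, while CENPF and CENPE lie furthest to the right; the right panel, on a wider scale, runs from KIF1C at -1.32 to KIF26B at 3.38.

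A promoter feature that the choice by symbol did not use was present in 23 of 41 mitotic members. The cell cycle genes homology region (CHR) is a short element, known from promoters that are repressed in resting cells and active in G2, which lies close to the transcription start, often a few turns of the helix downstream of a CCAAT box. Both strands of the RefSeq promoter windows (GRCh38.p14), from 250 bases before to 50 bases after each start, were searched for TTTGAA, for the variant TTTAAA and for CCAAT, allowing motifs to overlap. A gene counted when any of its windows held the letters. Windows were at hand for 62 members, 41 of them mitotic and 12 transport kinesins; among those with none were AURKA, TTK, BUB3, TPX2 and BIRC5. TTTGAA was found in 56.1% of the mitotic members and in 1 of the 12 transport kinesins (8.33%), against 2511 of the 15843 protein-coding genes in the table (15.8%). CCAAT was found in 70.7% of the mitotic members, 33.3% of the transport kinesins and 42.1% of all, and both together in 43.9%, 8.33% and 6.59%. With TTTAAA accepted as well, the shares were 63.4%, 16.7% and 24.7%. In the shorter window that begins 150 bases before the start, TTTGAA was in 56.1%, 8.33% and 9.58%, and both elements were in 41.5%, 8.33% and 3.33%.

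The 120 bases before the start are shown for 4 mitotic members that were lower and have both elements, for CENPF and CENPE, which were higher, and for SPC24 and KIF1C, which were among the most strongly reduced. Each is written 5′ to 3′ in the direction of transcription. Capitals mark the CHR letters, their variant and CCAAT on either strand, and the reverse complement of CCAAT reads ATTGG.
PLK1, chr16:23678769-23678888, + strand: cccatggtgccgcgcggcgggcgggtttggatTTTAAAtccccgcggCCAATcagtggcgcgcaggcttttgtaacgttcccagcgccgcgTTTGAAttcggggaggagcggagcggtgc
CDCA8, chr1:37692396-37692515, + strand: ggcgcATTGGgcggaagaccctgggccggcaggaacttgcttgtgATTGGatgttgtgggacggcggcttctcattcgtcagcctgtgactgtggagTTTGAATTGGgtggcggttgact
KIF11, chr10:92593010-92593129, + strand: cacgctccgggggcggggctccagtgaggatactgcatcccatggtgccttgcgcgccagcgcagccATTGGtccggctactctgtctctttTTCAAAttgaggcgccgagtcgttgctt
KIF4A, chrX:70289984-70290103, + strand: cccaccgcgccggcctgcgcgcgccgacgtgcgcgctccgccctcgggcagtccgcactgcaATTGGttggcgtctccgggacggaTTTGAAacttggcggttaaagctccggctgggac
CENPF, chr1:214603075-214603194, + strand: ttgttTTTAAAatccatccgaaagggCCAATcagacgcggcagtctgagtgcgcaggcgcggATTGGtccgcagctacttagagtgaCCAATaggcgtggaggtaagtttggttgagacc
CENPE, chr4:103198344-103198463, - strand: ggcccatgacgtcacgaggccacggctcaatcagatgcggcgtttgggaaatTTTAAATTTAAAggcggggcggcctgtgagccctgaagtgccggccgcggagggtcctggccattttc
SPC24, chr19:11155783-11155902, - strand: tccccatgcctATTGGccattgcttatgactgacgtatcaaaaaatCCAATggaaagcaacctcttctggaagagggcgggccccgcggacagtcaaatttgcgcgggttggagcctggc
KIF1C, chr17:4997830-4997949, + strand: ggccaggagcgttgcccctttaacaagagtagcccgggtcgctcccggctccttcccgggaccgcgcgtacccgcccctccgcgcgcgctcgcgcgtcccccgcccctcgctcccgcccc

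In PLK1, CDCA8, KIF11 and KIF4A the CHR letters began 29, 23, 28 and 34 bases before the start, each with CCAAT on one of the strands further upstream, and in CDCA8 a further CCAAT overlapped them. The stretch shown for CENPF held TTTAAA and 3 matches to CCAAT, and the CHR letters of CENPF began at base 41 after the start, outside the stretch. The stretch shown for CENPE held TTTAAA in tandem and no CCAAT, that for SPC24 held CCAAT on each strand and no CHR letters, and that for KIF1C held none of the motifs. Across the 45 windows of mitotic members, matches to TTTGAA gathered around the start, with 9 matches from 10 bases before to 9 after, where all 22199 windows had 216 matches, or 0.973 per 100 windows. The 22 tested mitotic members with TTTGAA had a median log2 fold change of -0.27, with 14 lower, and the 18 without it a median of -0.31, also with 14 lower. Among the mitotic members with a window, TTTGAA was in 14 of the 28 that were lower and 9 of the 13 that were not. CCAAT was in 22 and 7 of them. The 13 include KIF4B, which did not pass the filter on low counts. These shares are descriptions with no test. A match is a description of the letters and not a site shown to be bound.

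**Figure D2:**
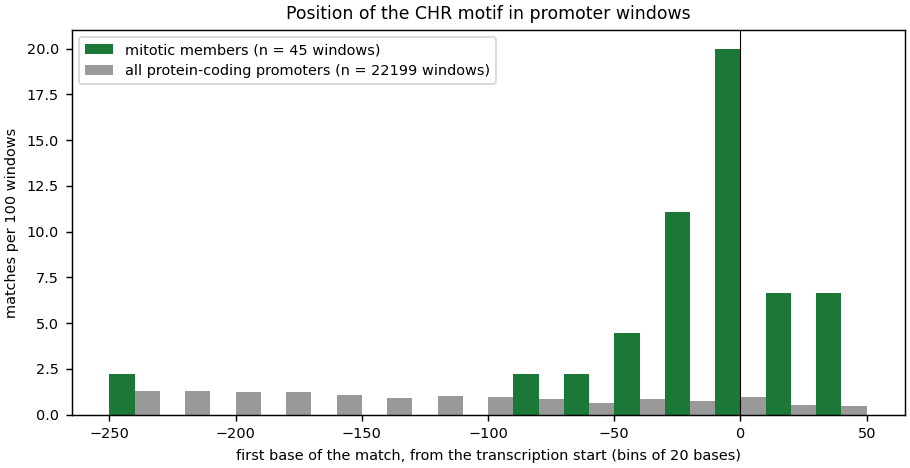
Position of TTTGAA on either strand (x axis, first base of the match in bases from the transcription start, in bins of 20 bases, the paired bars of a bin drawn side by side) and matches per 100 promoter windows (y axis), for 45 windows of mitotic members and 22199 windows of all protein-coding genes. The mitotic windows hold 9 matches in the bin around the start and 5 (11.1 per 100 windows) in the bin before it, while all windows stay between 0.5 and 1.31.

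All 7 mitotic kinases and passenger proteins were lower in siFSCN1, with a median log2 fold change of -0.55. AURKA (ENSG00000087586.18, GRCh38 chromosome 20, 56369389 to 56392337), the kinase that matures the spindle poles, had CPM of 159, 151 and 154 in NC and 74.3, 72.9 and 72.9 in siFSCN1. The siFSCN1 values were close to one another and far below every NC value, a log2 fold change of -1.08 ± 0.041 (SE, adjusted p = 1.25e-13). TPX2, which activates AURKA on spindle microtubules, had 165, 168 and 168 CPM in NC and 114, 117 and 114 in siFSCN1 (-0.54 ± 0.038, adjusted p = 5.39e-10). PLK1 (chromosome 16, 23677656 to 23690367), the kinase that drives mitotic entry and spindle assembly, had 212, 209 and 206 CPM in NC and 126, 126 and 120 in siFSCN1, which is 59.2% of NC (-0.76 ± 0.038, adjusted p = 6.18e-12). PLK1 and AURKA were thus the members of this role with the lowest values relative to NC.

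The chromosomal passenger complex corrects faulty attachments and moves to the midzone in anaphase, and each of its 4 genes was lower. AURKB, its kinase, had 86.2, 84.3 and 89.3 CPM in NC and 62.1, 61.8 and 54 in siFSCN1 (-0.55 ± 0.055, adjusted p = 6.41e-08). BIRC5, which encodes survivin, the subunit that reads phosphorylated histone H3, had 167, 155 and 158 CPM in NC and 125, 127 and 124 in siFSCN1 (-0.35 ± 0.041, adjusted p = 5.03e-07), and was the least reduced of the role. BIRC5 did not pass with the abundance and length trends removed, at -0.04. CDCA8, which encodes borealin, fell by 0.61 and INCENP, the scaffold, fell by 0.41 on the log2 scale.

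Of the 5 checkpoint genes, 4 were lower, with a median of -0.29 over the 5. MAD2L1, whose protein MAD2 holds back CDC20, had 67, 73.8 and 69.4 CPM in NC and 41.8, 47.5 and 47.8 in siFSCN1, with no overlap (-0.62 ± 0.058, adjusted p = 3.15e-08). BUB3, a subunit of the mitotic checkpoint complex, had 157, 169 and 158 CPM in NC and 123, 119 and 126 in siFSCN1 (-0.39 ± 0.042, adjusted p = 1.53e-07). BUB1, a kinase of the unattached kinetochore, had 59.5, 56.9 and 55.1 CPM in NC and 43.9, 48 and 48.5 in siFSCN1 (-0.29 ± 0.054, adjusted p = 1.22e-04). TTK, the MPS1 kinase at the head of the checkpoint, stood apart, with 20.8, 21.6 and 20.8 CPM in NC and 20.3, 23.3 and 21.6 in siFSCN1. The TTK groups overlapped, and the test did not pass (0.05 ± 0.063, adjusted p = 0.533). BUB1B, the gene of BUBR1, fell by 0.24, and its exons overlap those of the readthrough gene BUB1B-PAK6 on the same strand, so that its counts are uncertain. The calls of BUB1 and BUB1B did not pass when libraries were scaled by their totals, at -0.10 and -0.05.

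The subunits of the NDC80 complex differed from one another. The protein complex holds 1 copy of each of its 4 subunits, of which SPC24 and SPC25 form the end at the centromere and NDC80 and NUF2 the end at the microtubule. SPC24 (chromosome 19, 11131520 to 11155807) had 44.6, 43.5 and 44.3 CPM in NC and 21.5, 18.4 and 20.2 in siFSCN1, 45.5% of NC (-1.14 ± 0.057, adjusted p = 5.41e-12). SPC25 fell by 0.59, with 18, 21.2 and 22.4 CPM in NC and 14, 13.5 and 13.5 in siFSCN1. NUF2 had 22.1, 24.1 and 25 CPM in NC and 22.2, 23.2 and 24.2 in siFSCN1, with overlap (-0.03 ± 0.061, adjusted p = 0.657). NDC80 overlapped as well (-0.16 ± 0.105, adjusted p = 0.178). NUF2 and NDC80 had positive values with library totals, 0.16 and 0.02. The ratio of SPC24 to NDC80 in FPKM was 4.46 ± 0.327 (SD, n = 3) in NC and 2.3 ± 0.433 in siFSCN1 and did not overlap. The ratio of SPC25 to NDC80 was 3.23 ± 0.532 in NC and 2.42 ± 0.324 in siFSCN1, with overlap. That of NUF2 to NDC80 was 2.03 ± 0.247 and 2.23 ± 0.186 and overlapped as well.

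Of the 17 genes of centromere chromatin and the inner kinetochore, 13 were lower, 2 higher and 2 did not pass, with a median of -0.31. CENPW, a histone-fold protein that pairs with CENPT, was the most reduced, with 22.5, 22.4 and 24.3 CPM in NC and 14.6, 14 and 13.6 in siFSCN1 (-0.71 ± 0.067, adjusted p = 2.82e-08). CENPT, which reaches from the centromere to the NDC80 complex, had 21.6, 22.5 and 22.9 CPM in NC and 30.7, 31.7 and 29.8 in siFSCN1 and was the most increased (0.46 ± 0.052, adjusted p = 3.41e-07). The ratio of CENPW to CENPT in FPKM was 6.85 ± 0.219 (SD, n = 3) in NC and 3.04 ± 0.115 in siFSCN1, so that the transcripts of this pair moved in opposite directions. CENPS and CENPX, the other histone-fold partners, fell by 0.34 and 0.64. CENPT shares exonic sequence on the opposite strand with NUTF2, THAP11 and TSNAXIP1, and CENPS on the same strand with CENPS-CORT. The library kit kept the strand, but the strand setting of the counting was not given in the sources used here.

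The other subcomplexes of the inner kinetochore were lower or did not pass. The 4 genes of the CENP-O, P, Q and U group were all lower, with log2 fold changes of -0.62, -0.62, -0.41 and -0.19, and CENPL and CENPN, which bind the CENPA nucleosome, fell by 0.31 and 0.39. In the group of CENPH, CENPI, CENPK and CENPM, CENPM fell by 0.62 and CENPH by 0.29, while CENPI (0.06) and CENPK (0.04) did not pass. The calls of CENPU, CENPQ, CENPH, CENPL and CENPS were lost with library totals, at -0.01, -0.22, -0.10, -0.12 and -0.15, and those of CENPU, CENPL and CENPS with upper quartile scaling too, at -0.08, -0.19 and -0.22. CENPA had 36.9, 37.8 and 41 CPM in NC and 34.8, 32.6 and 34.5 in siFSCN1 without overlap (-0.18 ± 0.055, adjusted p = 6.32e-03), a call that was lost, at 0.003, with library totals. CENPB, which binds the alphoid satellite box, was the member of this role with the most counts, at 222, 229 and 225 CPM in NC and 202, 196 and 185 in siFSCN1 (-0.21 ± 0.040, adjusted p = 1.22e-04). CENPB was at 0.18 and higher with the abundance and length trends removed. CENPC, the scaffold of the inner kinetochore, was higher (0.32 ± 0.138, adjusted p = 0.0467), and did not pass without NC replicate 1, NC replicate 2 or siFSCN1 replicate 3, where its value ranged from 0.15 to 0.4 over the 6 libraries left out. CENPL did not pass without NC replicate 3, siFSCN1 replicate 1 or siFSCN1 replicate 2 (-0.43 to -0.24 over the 6), and CENPS without NC replicate 1, NC replicate 3 or siFSCN1 replicate 3 (-0.4 to -0.27).

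CENPF and CENPE rose, against the direction of most mitotic members. CENPF (chromosome 1, 214603185 to 214664574), a large protein of the nuclear matrix and outer kinetochore, had 46.8, 44.6 and 51.6 CPM in NC and 78.1, 75.6 and 83.6 in siFSCN1, 166% of NC (0.73 ± 0.058, adjusted p = 2.82e-09). CENPE, the kinesin-7 that brings chromosomes to the spindle equator, had 8.69, 8.39 and 9.35 CPM in NC and 12.9, 11.8 and 14.3 in siFSCN1 (0.56 ± 0.105, adjusted p = 1.28e-04). Every siFSCN1 library lay above every NC library for both genes. CENPV, a protein of the midzone and of pericentric chromatin, had 99.2, 97 and 102 CPM in NC and 84.9, 81.8 and 81.3 in siFSCN1 (-0.27 ± 0.044, adjusted p = 2.64e-05), a call lost with library totals, at -0.08.

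**Figure D3:**
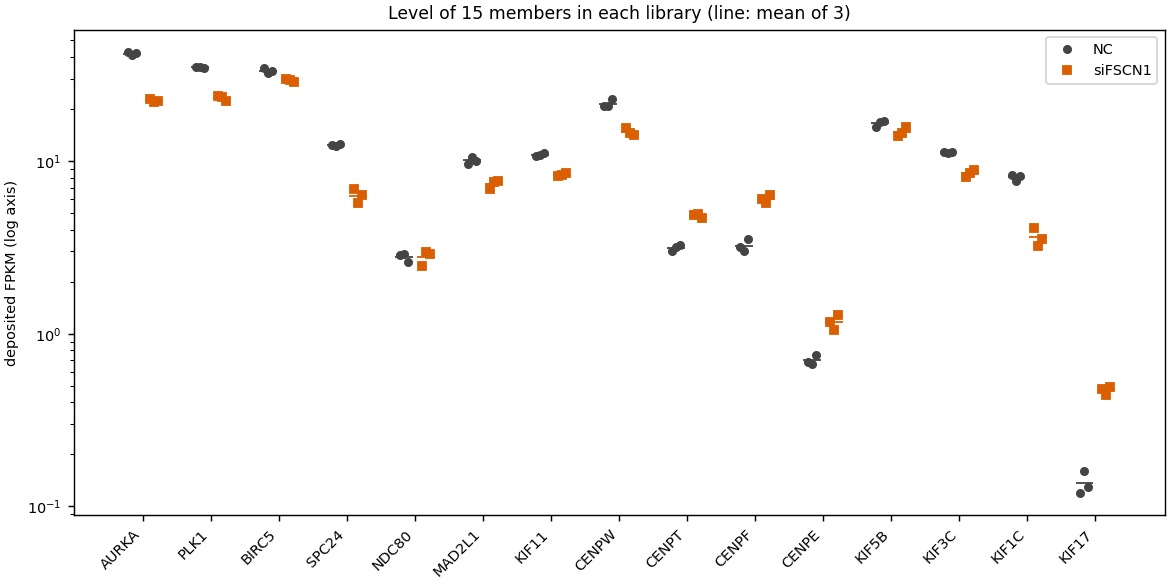
Deposited FPKM (y axis, log scale) of 15 members in each of the 3 NC libraries (circles) and 3 siFSCN1 libraries (squares), with lines at the group means. AURKA, PLK1, SPC24, CENPW and KIF1C lie lower in every siFSCN1 library than in any NC library. CENPT, CENPF, CENPE and KIF17 lie higher, and NDC80 and KIF5B overlap in FPKM.

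CENPF and CENPE have the longest exonic sequence of the mitotic members, 12471 and 9928 bases in GENCODE v44, and CENPW the shortest, 854 bases. Over the 48 mitotic members the log2 fold change had a Spearman correlation across genes of 0.40 with exonic length and of -0.39 with abundance. Over the 17 transport kinesins these were -0.12 and -0.02, and over all genes tested 0.09 (n = 17043) and -0.31 (n = 17076). The genes share the same 6 libraries and are not independent replicates, so that no p is given. The part of RNA integrity or of the library preparation was not tested.

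**Figure D4:**
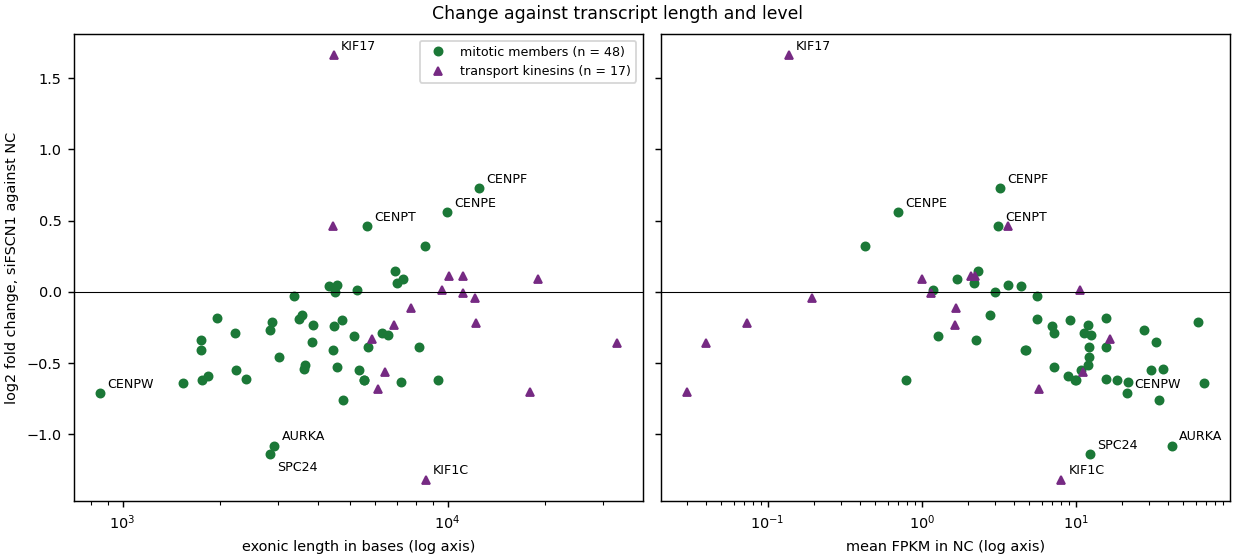
Log2 fold change in siFSCN1 against NC (y axis) against exonic length in bases (left, log axis) and against the mean FPKM in NC (right, log axis), 1 point per gene for 48 mitotic members (circles) and 17 transport kinesins (triangles). Among mitotic members the shortest, CENPW, is at -0.71 and the longest, CENPF, at 0.73, while KIF1C and KIF17 mark the ends of the transport kinesins at -1.32 and 1.66.

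Of the 12 mitotic kinesins tested, 8 were lower, KIF20B was higher, and KIF14, KIF15 and KIF18A did not pass. The kinesin-7 CENPE, which rose by 0.56, was grouped with the centromere-named proteins and is not among the 12. KIF22, a chromokinesin that pushes chromosome arms, was the most abundant kinesin in NC at 22 FPKM ± 0.775 (SD, n = 3) and had 116, 122 and 121 CPM in NC and 80.4, 74.9 and 75.8 in siFSCN1 (-0.63 ± 0.045, adjusted p = 5.3e-10). KIF11 (chromosome 10, 92574105 to 92655395), the tetrameric motor that slides spindle microtubules apart, had 72, 73.1 and 73.5 CPM in NC and 48.5, 50.3 and 51 in siFSCN1 (-0.55 ± 0.047, adjusted p = 8.36e-09). KIFC1, a minus-end-directed motor that acts against KIF11, had 47.6, 47.3 and 44.8 CPM in NC and 35, 34.8 and 31.7 in siFSCN1 (-0.46 ± 0.055, adjusted p = 6.2e-07). Both opposing motors were thus lower, without overlap between the groups. The chromokinesin KIF4A fell by 0.53 and the depolymerase KIF2C by 0.51. Of the kinesins of the midzone, KIF23 fell by 0.30 and KIF20A by 0.23, and KIF18B, which shortens astral microtubules, fell by 0.20. These last 3 did not pass with library totals, at -0.11, -0.04 and -0.02. KIF20B had 20.8, 20.3 and 19.1 CPM in NC and 21.8, 22.7 and 22.1 in siFSCN1 (0.15 ± 0.060, adjusted p = 0.0379), and this call was lost without any 1 of 5 libraries, all but NC replicate 1, with values of 0.10 to 0.16 over the 6.

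The transport kinesins did not move as a group. KIF1C (chromosome 17, 4997950 to 5028401), a kinesin-3 that carries vesicles, was the most reduced of the 76 genes tested, with 90.9, 82.4 and 88 CPM in NC and 39.1, 31.4 and 34.2 in siFSCN1, 40.1% of NC (-1.32 ± 0.067, adjusted p = 5.41e-12). KIF1C shares exonic sequence with KIF1C-AS1 on the opposite strand. Of the heterotrimeric kinesin-2 motors that serve cilia and vesicle transport, KIF3B fell by 0.68 and KIF3C by 0.56. KIF3A fell by 0.23, a call lost without NC replicate 1, NC replicate 3, siFSCN1 replicate 1 or siFSCN1 replicate 2 (-0.33 to -0.18 over the 6). KIF5B, the kinesin-1 heavy chain of most tissues and the most abundant transport kinesin in FPKM, had 117, 125 and 125 CPM in NC and 91, 96.7 and 104 in siFSCN1 (-0.33 ± 0.050, adjusted p = 1.12e-05). In CPM, KIFC3 was above KIF5B, at 127, 130 and 130 in NC and 130, 134 and 127 in siFSCN1. KIFC3 did not pass (0.01 ± 0.040, adjusted p = 0.834), though it was higher, at 0.20, with library totals. KIFC2, a minus-end-directed kinesin of the C-terminal family, rose by 0.46 ± 0.055 (adjusted p = 6.65e-07). KIF17, the homodimeric kinesin-2, was the only transport kinesin that rose at least 2-fold, from 0.658, 0.874 and 0.701 CPM to 2.35, 2.22 and 2.47 (1.66 ± 0.216, adjusted p = 1.93e-06), and remained at a low level, 0.47 FPKM ± 0.0265 (SD, n = 3) in siFSCN1.

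Among the other kinesins tested, 2 of 9 (22.2%) were lower, 3 (33.3%) were higher and 4 did not pass. These shares were near those of all genes tested, 33.2% lower and 35.1% higher. KIF2A, a microtubule depolymerase of neurons and spindle poles, had 46, 46.2 and 46.9 CPM in NC and 27.7, 32.6 and 29 in siFSCN1 (-0.64 ± 0.059, adjusted p = 1.99e-08). KIF26A, which lacks motor activity, had 2.94, 4.06 and 2.95 CPM in NC and 1.77, 2.31 and 2.09 in siFSCN1 (-0.68 ± 0.177, adjusted p = 2.33e-03). KIF12, an epithelial kinesin known from kidney and liver, had 3.84, 2.17 and 2.4 CPM in NC and 7.62, 6.56 and 6.3 in siFSCN1 (1.29 ± 0.168, adjusted p = 2e-06). KIF25 and KIF26B had fewer than 10 counts in at least 1 NC library and passed the filter through the siFSCN1 libraries. KIF26B had 4, 0 and 0 counts in NC and 13, 19 and 19 in siFSCN1, so that its fitted value of 3.38 ± 0.706 (adjusted p = 3.6e-04) depends on the prior count and ranged from 2.73 to 7.04 with 1 library left out. KIF25 had 0.069, 0.114 and 0.204 CPM in NC and 0.465, 0.334 and 0.383 in siFSCN1 (1.54 ± 0.5, adjusted p = 0.0113), and did not pass without NC replicate 1, with values of 1.24 to 2.07 over the 6 libraries left out. The KIF25 call was also lost with DESeq2, with limma on log2(FPKM + 1) and with the abundance trend or both trends removed.

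In centriole duplication, PLK4, the kinase that starts a new centriole, had 13.2, 13.1 and 14.1 CPM in NC and 10.1, 9.35 and 11.4 in siFSCN1 (-0.39 ± 0.101, adjusted p = 2.52e-03). CENPJ, which sets centriole length, had 12, 13 and 13.7 CPM in NC and 15, 15.6 and 15.6 in siFSCN1 (0.25 ± 0.087, adjusted p = 0.0149). The 2 genes moved in opposite directions. The PLK4 call was lost with library totals, at -0.20, and the CENPJ call without NC replicate 1 or siFSCN1 replicate 2, with values of 0.2 to 0.29 over the 6.

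Levels can be compared between genes in FPKM, which is per length. In NC the median of the 49 mitotic members was 9.2 FPKM and 45 of them were at 1 FPKM or more, while the median of the 17 transport kinesins was 1.68 FPKM and 12 reached 1 FPKM. KIF22 at 22 FPKM ± 0.775 and KIF5B at 16.6 FPKM ± 0.777 (SD, n = 3) led the kinesins in NC. They were followed by KIF23 at 12.5 ± 1.04, KIFC1 at 12.2 ± 0.307, KIF20A at 12.1 ± 0.323 and KIF2C at 12.1 ± 0.473, which did not differ beyond their spread, and by KIF3C at 11.2 ± 0.0569. Summed over genes, mitotic kinesins without CENPE were at 103.8, 110 and 105.4 FPKM in NC and 91.15, 90.78 and 90.56 in siFSCN1. Transport kinesins were at 65.18, 66.24 and 67.4 FPKM in NC and 59.95, 59.63 and 61.97 in siFSCN1. Both sums were lower in siFSCN1 without overlap, at 0.854 and 0.913 of NC. Their ratio, which does not depend on library scaling, was 1.592, 1.661 and 1.564 in NC and 1.52, 1.522 and 1.461 in siFSCN1, without overlap, 0.935 of NC. KIF1C made up 12.2% ± 0.651 (SD, n = 3) of the summed transport kinesins in NC and 6.0% ± 0.767 in siFSCN1, and the share of KIF5B was 25% ± 0.814 and 24.4% ± 1, with overlap.

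Partner genes of mitosis outside the chosen symbols, from 5 lists with 85 genes, had 56 lower, 13 higher and 16 that did not pass, with a median of -0.34, where 33.2% of all genes tested were lower and 35.1% higher, and 46.9% and 32.9% of those of like abundance. The lists were chosen with earlier results known, as were the members, and with library totals the counts were 46 lower and 21 higher. Of the 27 genes of mitotic entry and anaphase promotion, 22 were lower and 3 higher, from CDC26, a subunit of the anaphase-promoting complex, at -2.06 to WEE1, the kinase that restrains CDK1, at 0.73. CDK1 itself fell by 0.16 with TMM scaling. Its FPKM overlapped between the groups, at 27.23, 29.48 and 30.53 in NC and 26.88, 29.93 and 30.53 in siFSCN1. Chosen after their values were seen, CDC20, which activates the anaphase-promoting complex and is held by MAD2, fell by 1.19, and CCNB1, a B-type cyclin of CDK1, fell by 0.99. The other B-type cyclin listed, CCNB2, fell by 0.11. Its FPKM overlapped between the groups, at 25.27, 23.62 and 24.96 in NC and 25.26, 25.67 and 25.68 in siFSCN1. Of 21 kinetochore and checkpoint partners, 12 were lower and 4 higher, from SPDL1, the spindly protein that recruits dynein, at -1.29 to ZW10, of the complex that binds it, at 0.82. Of 4 centromere loading factors, 3 were lower and none higher, with HJURP, the CENPA chaperone, the lowest at -0.50. Of 23 spindle and midzone genes, 12 were lower and 5 higher, from TUBG1, the nucleating tubulin, at -0.95 to ASPM, a spindle pole protein, at 0.57 among those that passed; NUSAP1, with 4 to 22 counts, did not pass (0.90). Of 10 condensin and chromosome condensation genes, 7 were lower and 1 higher, from NCAPH2 at -0.77 to SMC4 at 0.25.

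Of 20 regulators of mitotic transcription, 13 were lower and 2 higher, with a median of -0.27. MYBL2, the B-MYB subunit of the complex that binds CHR elements, fell by 1.14, and FOXM1, which acts with it, fell by 0.24 on the log2 scale. CDKN1A, the p21 inhibitor whose rise lowers CHR promoters, fell by 1.07, and CDKN1B, the p27 inhibitor, was the highest of the list at 0.37.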

How the data were processed

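RNA sequencing of 6 A549 libraries gave a deposited table of raw counts for 30230 genes, in which each value is the number of uniquely mapped reads per gene as counted by the authors, and a table of FPKM for 29899 genes, which the authors scaled to gene length and library depth. According to the study's methods, the authors trimmed paired reads of 150 bases with FASTX Toolkit 0.0.13 and aligned them to GRCh38 with HISAT2, allowing 4 mismatches. The submitters' processing notes name TopHat2 and bcl2fastq instead. The labels and the methods name different library kits, both of which keep the strand. The program that counted reads, whether it used strand, and its annotation are not given in the sources used here. No counts lay in rows that named no gene.

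Groups and replicate numbers were taken from the sample titles. Genes were kept by filterByExpr (17076 genes), scaled by TMM and tested with edgeR 4.0.16 quasi-likelihood (R 4.3.3, no covariate), with Benjamini-Hochberg adjustment over all genes tested. Standard errors were derived from the F statistic. The study used DESeq2, which was run as an alternative (1.42.0), as was limma 3.58.1 on log2(FPKM + 0.1) and log2(FPKM + 1). The other alternatives were RLE, upper quartile and total scaling, no filter, a stricter filter (mean count of at least 10, with at least 1 CPM in 3 libraries), a replicate block, removal of the abundance trend (loess, span 0.5), each library left out, the transport class limited to the kinesin-1 to kinesin-3 families, members of at least 1 FPKM, and a promoter window of 150 bases before the start. Removal of the abundance and length trends together was chosen after seeing the data. The common biological coefficient of variation was 5.94%. In counts simulated for 17076 genes of this comparison, 60.6% of 94 genes changed by 0.5 and 77.4% of 106 changed by 1 on the log2 scale were recovered, with 9 false calls. Far fewer genes were changed in the simulation than were called in the data. These rates therefore do not give the power of the real comparison.

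The members, their roles and the gene lists were chosen with earlier results of these data known. Values per library are given for members changed at least 2-fold, for the lowest, highest and most abundant member of each role and for 12 well-known members, and additionally for a few beside them. From each list the lowest and highest gene is named, and FOXM1, MYBL2, CDKN1A and CDK1; some items that this rule gives are not reported here. GENCODE v44 held 99.7% of the gene identifiers and gave positions, exonic lengths and overlaps. Exons of another gene overlapped 31 of the 76 tested members on the opposite strand and 6 on the same strand. Pairs of libraries within a group differed by more than sampling noise (chi-square per degree of freedom 3.1 to 8.14), so that each was counted as its own sample. Promoter windows came from a RefSeq table of GRCh38.p14.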

Additional observations from a re-analysis of the deposited data

How the results depend on the processing

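Of the 76 tested members, 37 kept their call under every alternative, among them 33 of the 54 that were lower or higher. The same replicate numbers in the titles did not pair the libraries (correlations of -0.035, 0.04 and -0.084), and the replicate block changed the call of 1 member, KIF13A, which became higher at 0.11, with 35 mitotic members lower and 3 transport kinesins higher under it. The cause of the shifts below was not tested. The FSCN1 log2 fold change stayed between -4.11 and -3.41 throughout.

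Mitotic members lower numbered 35 as reported, 22 with library totals and 23 with limma at either pseudocount. They numbered 30 with upper quartile scaling or the abundance trend removed, 26 with both trends removed, and 33 to 35 with a library left out. Mitotic members higher numbered 5 as reported, 3 with RLE scaling or DESeq2, 8 with upper quartile scaling or limma at either pseudocount, 10 with library totals, and 3 to 4 with a library left out, 3 being reached without NC replicate 2 or siFSCN1 replicate 3. Transport kinesins higher numbered 6 with upper quartile scaling, library totals or either limma fit, 5 with the abundance trend removed, and 1 among the kinesin-1 to kinesin-3 families. Transport kinesins lower numbered 8 with the abundance trend and 11 with both trends removed. Members lower at least 2-fold numbered 1 with library totals or log2(FPKM + 0.1) and 0 with log2(FPKM + 1). Members higher at least 2-fold numbered 2 with the stricter filter or log2(FPKM + 0.1) and 0 with log2(FPKM + 1). For the 5 partner lists, genes higher numbered 21 with library totals and 20 with log2(FPKM + 1).

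The mitotic median was -0.20 with upper quartile scaling, -0.13 with library totals, -0.37 with DESeq2, -0.15 and -0.12 with limma, -0.23 with the abundance trend and -0.21 with both trends removed. The transport median was 0.0062 with upper quartile scaling, 0.08 with library totals, and 0.05 and 0.02 with limma, so that it changed sign. It was -0.13 with RLE, -0.14 with DESeq2, -0.12 with no filter, -0.05 with the stricter filter, -0.16 and -0.24 with the trends removed, -0.23 for kinesin-1 to kinesin-3, and -0.19 to -0.09 with a library left out. The difference of the medians was -0.25 with the stricter filter, -0.14 with log2(FPKM + 1), -0.06 with the abundance trend removed, 0.03 with both trends removed, -0.09 for kinesin-1 to kinesin-3, and -0.27 to -0.16 with a library left out.

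Among the members given a value in the report, those that changed sign were NDC80 (0.02 with library totals), NUF2 (0.09 with upper quartile scaling, 0.16 with library totals, 0.13 and 0.12 with limma, 0.07 with both trends removed, -0.09 to 0.0016 with a library left out), CENPA (0.003 with library totals, 0.04 with both trends removed), CENPB (0.04 with the abundance trend and 0.18 with both removed), CENPI (-0.01) and CENPV (0.05) with both trends removed, and, with a library left out, CENPK (-0.07 to 0.13) and TTK (-0.01 to 0.08). The CENPC log2 fold change was -0.0023 with both trends removed. KIFC3 changed sign with RLE scaling and DESeq2. Of members given no value, KIF15 and KIF18A did so too, and KIF24, KIF13B, KIF16B and KIF21B with upper quartile scaling and library totals. With the abundance trend removed, KIF7, KIF9, KIF15, KIF18A and KIF27 turned negative. KIF1B (-0.13) and KIF14 (-0.03) did so with both trends removed. With a library left out, KIF13B, KIF15, KIF18A, KIF21B, KIF27 and KIFC3 reached both signs. Genes with few counts, such as KIF25 and KIF26B, are limited by depth.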

Other observations

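Genes that couple transport motors to cargo, and those of the opposing motor dynein, form a further list. Of 36 kinesin light chains, adaptors and subunits of dynein and dynactin listed, 34 were tested, and 15 were lower and 13 higher in siFSCN1, with a median log2 fold change of -0.06, where 33.2% of all genes tested were lower and 35.1% higher. The lowest was PAFAH1B1, whose protein LIS1 regulates dynein, at -0.80, and the highest was BICD2, which links dynein to cargo, at 1.27. BICD2 had 378, 316 and 409 counts in NC and 1046, 919 and 1053 in siFSCN1, without overlap. PAFAH1B1 had 3303, 3155 and 4161 counts in NC and 2365, 2201 and 2327 in siFSCN1.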
